A study of Mus musculus with 3 samples.

Results

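Natural killer (NK) cells of mouse peripheral blood (PB) were examined in 3 single-cell RNA libraries, 1 from naive mice, 1 from mice 11 days after engraftment with leukemia (D11) and 1 from mice at 14 days (D14). All mice carried the wild-type genotype on the Balb/C background. The engrafted mice were female and 6 to 8 weeks old when they received BBC2 cells, a GFP-marked leukemia line of pro-B character driven by the fusion kinase BCR-FGFR1. The model therefore rests on 1 transplanted line in hosts whose own immune cells were intact, and the sources used here do not give how many mice went into each library. An NK cell was taken to be a barcode with at least 200 detected genes, at most 10% of its UMIs (unique molecular identifiers, each marking 1 captured RNA molecule) in mitochondrial genes, at least 3 UMIs in sum of Ncr1, Klre1, Gzma and Prf1 with at least 1 from Ncr1 or Klre1, at most 1 UMI in sum of the T cell receptor genes Cd3d, Cd3e and Cd3g, no UMI of the B cell gene Cd79a, and at most 1 UMI in sum of the monocyte genes F13a1 and Fn1. The cells were thus selected on measured values of these genes, which are given below only as a description. The rule found 435 NK cells among 12792 barcodes that passed the filter, namely 189 of 3811 naive barcodes, 192 of 4567 barcodes of the D11 library and 54 of 4414 of the D14 library. Below, 3 values given together without labels are in the order naive, D11 and D14.

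NK cells are innate lymphocytes that kill infected or transformed cells without a rearranged antigen receptor. They carry activating and inhibitory surface receptors, many of them lectin-like proteins that read MHC class I on other cells, they kill by releasing perforin and granzymes from granules or through death ligands, and they secrete cytokines such as interferon gamma. In mice they mature from CD27-positive cells that use the transcription factor TCF-1 toward cells with less CD27 and more CD11b.

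The deposited libraries held 30362408, 57640396 and 65861863 UMIs over all barcodes, of which the NK cells held 1509940, 1171363 and 364641. The median NK cell held 7678, 5427.5 and 6090.5 UMIs, so shares of cells with a UMI were compared after each cell had been thinned to the same number of UMIs, and numbers of cells given without thinning are descriptions at unequal depth. Levels below are in CPM, the UMIs of a gene summed over the NK cells of a library, per 1000000 UMIs of those cells, and brackets or ranges after a value are exact 95% intervals. Because each condition had 1 library, no test between conditions was possible, the intervals cover counting error only, and a difference between conditions cannot be told apart from a difference between libraries. Most cells lay far from the edge of the rule. The median NK cell held 75, 45.5 and 60 UMIs of the 4 choosing genes, and the 10th percentile was 18.6, 10.1 and 7.2. Exactly 3 such UMIs, the lowest number allowed, were found in 2, 5 and 1 NK cells of the naive, D11 and D14 libraries, and 2, 5 and 2 barcodes were left out with exactly 2 UMIs. Exactly 4 were found in 1, 2 and 3 NK cells, and 12, 15 and 14 barcodes were left out with 1 UMI. The limit on Cd3 genes left out 31, 10 and 3 barcodes that met the other criteria. Between 12 and 18 barcode sequences were shared by any pair of libraries, and none of these was an NK cell in both.

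Genes that the rule did not use followed the NK label. Eomes, the T-box factor of conventional NK cells, stood at 372, 358 and 335 CPM, against 6.76, 7.08 and 3.58 CPM in T gate cells of the same libraries (at least 2 UMIs of the Cd3 genes, no UMI of Ncr1, Klre1 or Cd79a and at most 1 of F13a1 and Fn1). Nkg7, a cytotoxic granule protein, stood at 1573, 1507 and 1733 CPM, and Klrd1, which encodes the CD94 chain of NK receptors, at 1046, 1189 and 943 CPM. Itga2, the CD49b integrin used to sort mouse NK cells, was detected at 830, 673 and 592 CPM. These identity genes were present at D14 as in the naive library. Among the choosing genes, Gzma was found at 6869, 6300 and 6947 CPM, Prf1 at 581, 643 and 905 CPM, Ncr1 at 1040, 1054 and 858 CPM and Klre1 at 855, 764 and 595 CPM.

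RNA of genes used as markers of other blood cells was also present in the NK barcodes, and some of the sums differed between libraries. The 9 neutrophil markers, all of them detected in each library, summed to 749, 1361 and 3872 CPM, with S100a9 the most abundant, and a single barcode held 1159 of the 1412 neutrophil UMIs at D14. The 7 red cell markers summed to 8006, 34850 and 26248 CPM, led by Hbb-bs. The 10 B cell markers summed to 77.5, 83.7 and 101 CPM with Cd79a and Ms4a1 at 0, and the 10 markers of leukemic pro-B cells to 108, 91.3 and 255 CPM with Rag1 and Rag2 at 0. Ebf1, the B lineage factor that is also on in the leukemia, contributed 2, 11 and 17 UMIs. The 14 T cell markers summed to 1056, 1047 and 1056 CPM, with Cd8a at 0 in all 3 libraries. Lef1 led this sum, with 520 of the 1595 UMIs in the naive library. The sum also includes Trbc1 and Trdc, whose levels in NK cells are given at the end. Whether this RNA came from T cells or from the NK cells themselves was not tested. The 12 monocyte markers summed to 623, 574 and 559 CPM, led by Ccr2, which NK cells express themselves. The 10 markers of type 1 innate lymphoid cells (ILC1), tissue relatives of NK cells, summed to 763, 754 and 653 CPM. Ltb, also an early-stage NK gene below, led this sum, with 682 of the 1152 UMIs in the naive library. Cxcr6, Tmem176a and Tmem176b were at 0 at D14. The 5 markers of group 2 innate lymphoid and NKT cells summed to 419, 398 and 483 CPM, led by Rora, and the 6 platelet markers gave 18, 6 and 2 UMIs. The 5 basophil and mast cell markers gave 0, 2 and 0 UMIs. The part of these cells in the differences below was not tested. Leaving out barcodes with 10 or more UMIs of red cell, platelet, neutrophil or B cell markers kept 180, 56 and 28 NK cells, and some single-gene values without those barcodes are given below.

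The NK share of PB barcodes was lowest at D14. NK cells made up 4.96% (4.29 to 5.70), 4.20% (3.64 to 4.83) and 1.22% (0.920 to 1.59) of the barcodes. The D14 share was 0.247 (0.179 to 0.335) of the naive share, and the D11 share was 0.848 (0.690 to 1.04) of it, an interval that includes no difference. The libraries also differed in what else they held. Over barcodes without red cells and platelets the NK shares were 5.02%, 5.97% and 1.60%. Counted against T cells the order changed, since T gate cells numbered 1307, 559 and 326 and there were 14.5 (12.3 to 16.9), 34.3 (29.0 to 40.5) and 16.6 (12.2 to 22.1) NK cells per 100 T gate cells. Many T gate barcodes of the leukemic libraries carried neutrophil RNA, with S100a8 at 3008, 30586 and 61933 CPM. With the T gate barcodes of 10 or more neutrophil UMIs left out, a step added after these values were seen, NK cells numbered 16.1 (13.7 to 18.8), 72.2 (59.6 to 87.2) and 54.5 (38.4 to 76.7) per 100 T gate cells. CD8 T gate cells are T gate cells with at least 2 UMIs of Cd8a and Cd8b1 and no UMI of Cd4. They numbered 189, 39 and 28, with 243044 UMIs in sum at D14. Their levels and list medians below thus rest on few cells in the leukemic libraries and are given in the text without intervals. Per 100 CD8 T gate cells there were 100 (81.3 to 123), 492 (347 to 714) and 193 (120 to 316) NK cells. Per 100 B gate cells, leukemic cells included, NK cells numbered 55.6, 55.0 and 6.73. NK cells were thus a smaller fraction of blood barcodes at D14, yet more numerous relative to CD8 T gate cells than in naive blood. These are relative numbers, and no cell count per volume of blood was measured.

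**Figure D1:**
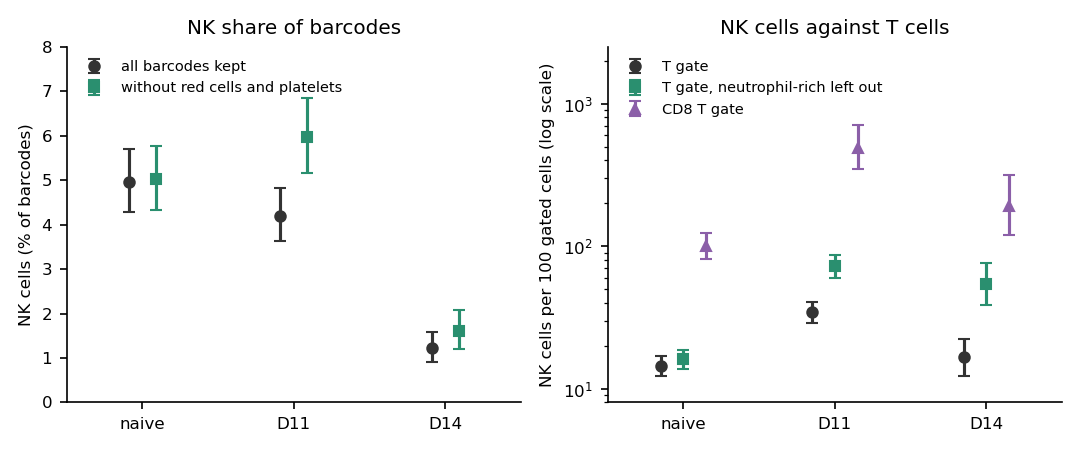
Left, NK cells as a percent of barcodes in the naive, D11 and D14 libraries, over all barcodes kept (circles) and without red cells and platelets (squares). Right, NK cells per 100 T gate cells (circles), per 100 T gate cells without neutrophil-rich barcodes (squares) and per 100 CD8 T gate cells (triangles), on a log axis. Bars are exact 95% intervals for counting error. The share over all barcodes is 1.22% at D14, while the ratio to CD8 T gate cells is 100 in the naive library and 193 at D14.

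Within NK cells, the D14 library held more RNA for the granule protease Gzmb, the transcription factor Irf8, the IL-12 receptor chain Il12rb2 and the BCL-2 family genes Bcl2 and Bcl2l11, and less for the early-stage genes Cd27, Cd7 and Tcf7, the granzyme Gzmk and the adhesion receptor Cd2. Among the 1980 genes whose level averaged 100 CPM or more, 22 (1.11%) stood at least 2-fold above the naive level at D14 and 9 (0.455%) at least 2-fold lower, with 10 CPM added to each value. The balance of the directions depended on the minimum and on the barcodes kept, with 92 (1.47%) higher and 103 (1.65%) lower among the 6249 genes of at least 20 CPM, and with 37 higher and 27 lower at 100 CPM without barcodes that held markers of other cells. At D11 the counts were 5 (0.253%) higher and 6 (0.303%) lower. The 5 higher genes at D11 were 4 hemoglobin genes and Retnlg, and the 6 lower ones were Hgsnat and the ribosomal protein genes Rps28, Rps27, Rpl38, Rpl35 and Rps29. All ribosomal protein genes together held 11.5%, 9.95% and 8.48% of the UMIs of NK cells, which are part of the total behind each CPM value. Hemoglobin genes took 4 of the 22 places at D14 as well, and the neutrophil genes Retnlg, S100a8 and S100a9 took 3. The minimum was a mean over the 3 libraries, so some genes reached 100 CPM only through the library in which they stood high. Such genes include Tex14, Tex2 and Retnlg, through D14, and Hgsnat, through the naive library.

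Gzmb, on chromosome 14 (GRCm38, chr14:56258838-56262260, minus strand), encodes granzyme B, the protease that perforin delivers into target cells to trigger their death. Its level was 148 CPM (130 to 169), 201 CPM (176 to 228) and 538 CPM (465 to 618). The D14 level was 3.62-fold the naive one, a log2 ratio of 1.86 (1.57 to 2.14), and at D11 the log2 ratio was 0.44 (0.17 to 0.71). The 3 intervals do not overlap. The median NK cell held 0, 0 and 3 Gzmb UMIs, and 15, 17 and 16 cells held 5 or more. CD8 T gate cells had less Gzmb RNA, with 1.53, 61.8 and 103 CPM, and in the B gate (at least 2 UMIs of Cd79a and no UMI of the Cd3 genes, Ncr1 or Klre1) 0, 0 and 2 UMIs were found. The B gate did not hold the same cells in each library. Its median UMIs were 6365.5, 7212 and 30261, and the proliferation gene Mki67 was read in 0.882%, 26.6% and 72.6% of its cells, so its values below are those of whatever Cd79a-positive cells a library held, leukemic cells included.

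Irf8, on chromosome 8 (chr8:120736358-120756694, plus strand), encodes an interferon regulatory factor best known from monocytes, dendritic cells and B cells and also used by activated NK cells. Its level was 285 CPM (258 to 313), 408 CPM (372 to 446) and 754 CPM (668 to 849). Against the naive library the log2 ratio was 1.41 (1.18 to 1.63) at D14, with an intermediate D11 ratio of 0.52 (0.33 to 0.71), so the level was higher in each later library. Irf8 was read in 127 of 189, 140 of 192 and 51 of 54 NK cells. The B gate, whose cells differed between libraries, stood at 213, 121 and 117 CPM, and CD8 T gate cells stood at 4.59, 9.27 and 16.5 CPM. Il12rb2, the signalling chain of the IL-12 receptor (chromosome 6, chr6:67291318-67376188, minus strand), stood at 262 CPM (237 to 289), 339 CPM (306 to 374) and 518 CPM (447 to 598), giving 0.98 (0.73 to 1.24) as the D14 log2 ratio. In CD8 T gate cells Il12rb2 gave 14, 0 and 1 UMIs. Cytokine receptors of NK cells signal through STAT proteins, whose common binding motif has the letters TTCNNNGAA, which read the same on both strands. The motif is in the 250 bases before the start of 8.13% of 27025 genes with a RefSeq promoter entry. It is shown for these genes because both stood higher at D14 and both windows hold it, Irf8 with 2 matches and Il12rb2 with 1, the matches in capitals. No count is given of the other genes higher at D14 that hold or lack the motif. The windows span bases 250 to 101 before the start of each gene on RefSeq's GRCm38.p6, chr8:120736108-120736257 (plus strand) and chr6:67376289-67376438 (minus strand), and a match is a description of the letters only.
Irf8: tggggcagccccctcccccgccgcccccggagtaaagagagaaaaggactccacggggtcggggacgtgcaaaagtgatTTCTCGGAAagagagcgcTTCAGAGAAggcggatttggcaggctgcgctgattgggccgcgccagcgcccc
Il12rb2: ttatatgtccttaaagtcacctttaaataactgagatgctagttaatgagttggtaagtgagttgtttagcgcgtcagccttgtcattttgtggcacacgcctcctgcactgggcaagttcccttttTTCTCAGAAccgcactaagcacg

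The other genes with the largest D14 ratios had known roles in signalling, or none that is firmly known in NK cells. Tex14, a gene known for intercellular bridges in germ cells (chromosome 11, chr11:87405065-87555823, plus strand), stood at 68.2 CPM (55.7 to 82.7), 87.9 CPM (71.8 to 107) and 293 CPM (240 to 355), a D14 log2 ratio of 2.10 (1.70 to 2.51), and was read in 58, 58 and 29 NK cells. The B gate held 49.8, 312 and 300 CPM of Tex14 and the CD8 T gate 55.6, 46.4 and 61.7 CPM. Itpk1, an inositol phosphate kinase, stood at 128, 160 and 329 CPM and had a D14 log2 ratio of 1.36 (1.02 to 1.69), which on the log2(CPM + 10) scale was 1.29, and 0.84 without barcodes that held markers of other cells. Heatr5a stood at 86.8, 143 and 219 CPM (1.34, 0.92 to 1.75), and Tex2 at 66.9, 76.8 and 165 CPM (1.30, 0.81 to 1.77), with 25% of its D14 UMIs in 1 cell. Tex14 and Tex2 averaged 100 CPM only through their D14 levels, so their places among the named genes were fixed by that minimum. Airn, a long noncoding RNA, stood at 94.7, 121 and 244 CPM (1.37, 0.97 to 1.76). The D14 ratio of Airn was 0.21 on the log2(CPM + 10) scale when barcodes with markers of other cells were left out, which kept 28 NK cells at D14.

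**Figure D2:**
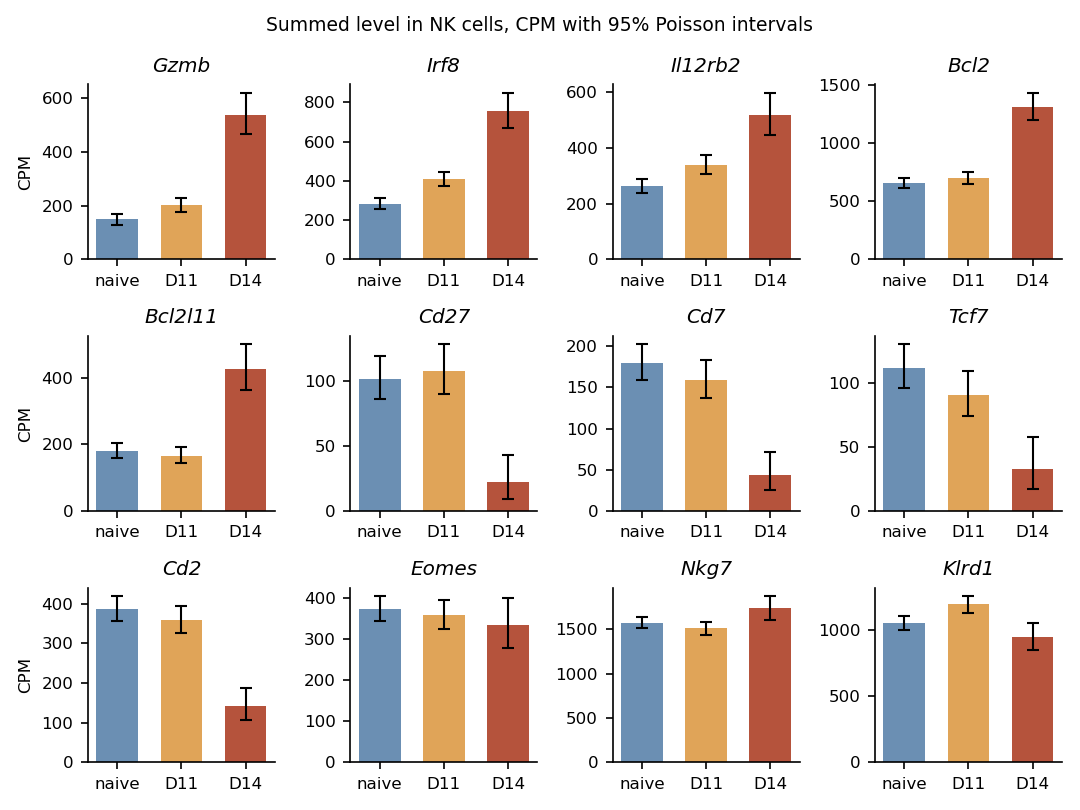
Level of 12 genes in NK cells of the naive, D11 and D14 libraries, in CPM summed over the cells of each library, with exact 95% Poisson intervals. Each panel has its own axis from 0. Gzmb, Irf8, Il12rb2, Bcl2 and Bcl2l11 are highest at D14, Cd27, Cd7, Tcf7 and Cd2 are lowest at D14, and the D14 interval of Eomes overlaps both other intervals.

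Some genes of the early NK stage were lower at D14. Cd27, a TNF receptor family member that marks less mature NK cells (chromosome 6, chr6:125232622-125237010, minus strand), stood at 101 CPM (85.9 to 119), 108 CPM (89.6 to 128) and 21.9 CPM (9.47 to 43.2), a D14 log2 ratio of -2.21 (-3.45 to -1.19). Cd7, an immunoglobulin family receptor of T and NK cells (chromosome 11, chr11:121036747-121039418, minus strand), stood at 179 CPM (159 to 202), 159 CPM (137 to 183) and 43.9 CPM (25.1 to 71.3), a D14 log2 ratio of -2.03 (-2.86 to -1.31). Tcf7, which encodes TCF-1 (chromosome 11, chr11:52252371-52283014, minus strand), stood at 112, 90.5 and 32.9 CPM (-1.77, -2.75 to -0.92). For each of these genes the D14 interval lay below both others, and the naive and D11 intervals overlapped. Of the 10 measured members of the early-stage list (those that averaged 20 CPM or more), 3 were at least 2-fold lower at D14, these same genes, and 0 at least 2-fold higher, where 1.65% and 1.47% of 6249 genes passed. The list's median was -0.69 on the log2(CPM + 10) scale at D14 and -0.22 at D11, against -0.03 over all 6249 genes in both. Ctla2a, a protease inhibitor, stood at 458.3, 335 and 255 CPM, and Ltb, the lymphotoxin beta chain, at 452, 481 and 304 CPM. Cd160 gave 43.7, 40.1 and 19.2 CPM. Il7r (51.0, 18.8 and 85.0 CPM) was not lower at D14, and this gene, 1 of the pro-B markers too, was the 1 member at least 2-fold lower at D11, where 0.304% of the genes passed and 0.336% passed in the other direction. The same 10 genes had a D14 median of 0.13 in CD8 T gate cells, 0.19 in T gate cells without neutrophil-rich barcodes, -0.78 in the whole T gate, where the median over all genes was -0.35, and -0.13 in the B gate. Outside NK cells, the median was thus lower in the whole T gate, where many leukemic barcodes carried neutrophil RNA. It was not lower in CD8 T gate cells or in T gate cells without neutrophil-rich barcodes. In the B gate, which held different cells in each library, the median over all genes was 0.16. Cd7 went the other way in CD8 T gate cells, with 70.9, 98.9 and 123 CPM in 189, 39 and 28 cells.

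Late-stage genes were mixed. Of 13 measured members, 3 were at least 2-fold higher at D14 and 0 lower (1.47% and 1.65% of all 6249 genes), namely Gzmb, Irf8 and Ly6c2, and the list's median was 0.27. Ly6c2, a Ly6C antigen, stood at 39.1, 81.1 and 101 CPM. Itgam, which encodes CD11b, stood at 265 CPM (240 to 292), 248 CPM (220 to 278) and 321 CPM (265 to 385), and Klrg1, the other classical marker of mature NK cells, at 165, 122 and 112 CPM. Zeb2, a factor of terminal maturation, stood at 1447, 1248 and 1484 CPM. Cx3cr1, the fractalkine receptor, was read in 38, 21 and 2 UMIs. Its mean fell below the minimum of 20 CPM, so its low D14 level did not enter the count of 0 lower members. In CD8 T gate cells the same list had a median of 0.86 at D14, against 0.04 over all genes.

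The share of NK cells with a UMI was compared after each cell had been thinned to 2000 UMIs, which kept 186, 177 and 54 NK cells and left out 3, 15 and 0. Cd27 was then read in 18.3%, 14.7% and 1.85% of NK cells, Cd7 in 29.0%, 23.7% and 3.70%, and Tcf7 in 16.7%, 16.9% and 1.85%. The D14 shares of Cd27 and Tcf7 rest on 1 cell each. In the B gate, at 338, 341 and 794 cells of the same depth, Cd27 was read in 3.55%, 2.05% and 0.756% of cells, Tcf7 in 2.07%, 0.293% and 0.504% and Cd7 in none, so the D14 share of Cd27 in NK cells was within counting error of the background. Gzmb was read in 19.9% (14.4 to 26.4), 29.4% (22.8 to 36.7) and 50% (36.1 to 63.9) of NK cells and in no B gate cell. Irf8 was read in 34.9%, 47.5% and 75.9% of NK cells and, as a gene that B cells express, in 36.7%, 21.1% and 23.6% of B gate cells. Il12rb2 was read in 37.6%, 46.3% and 66.7%, and Bcl2l11 in 25.8%, 22% and 53.7%. Eomes was read in 47.8%, 48.0% and 51.9% of NK cells and in no B gate cell. Each thinned share, here and below, comes from 1 random draw of UMIs, and the intervals do not cover the spread between draws. At D14 Cd27 was read in 1 cell at 2000 UMIs and in 2 cells at 1000 UMIs. At 1000 UMIs per cell the D14 differences of some genes were smaller or differed, and the part of the draw in this was not tested. Cd27 was read in 6.38% (3.34 to 10.9), 11.2% (7.05 to 16.6) and 3.70% (0.452 to 12.7) of NK cells, Il12rb2 in 26.1%, 30.9% and 35.2%, with overlapping intervals for both genes, and Eomes in 28.7% (22.4 to 35.8), 31.4% (24.8 to 38.5) and 14.8% (6.62 to 27.1). Without thinning, Gzmb was read in 42.9%, 39.6% and 74.1% of NK cells and Cd27 in 37.6%, 37.5% and 13%.

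**Figure D3:**
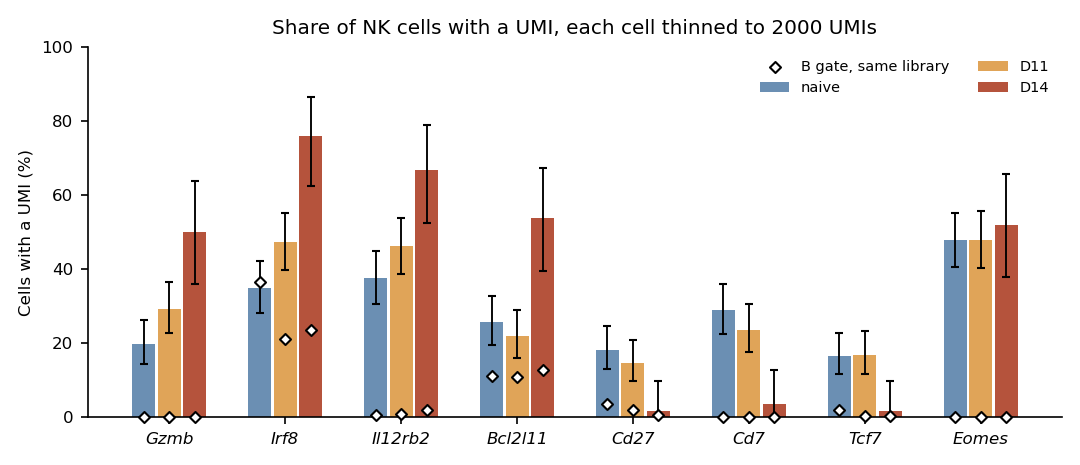
Percent of NK cells with at least 1 UMI of each of 8 genes after each cell was thinned to 2000 UMIs, in the naive, D11 and D14 libraries. Bars have exact 95% intervals and open diamonds give the share in B gate cells of the same library. The Gzmb share is 19.9% in the naive library and 50% at D14, the Cd7 share is 29.0% and 3.70%, and the Eomes share is between 47.8% and 51.9% at this depth.

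Cells that held an early-stage transcript were compared with those that did not, a split made after the values of Cd27, Cd7 and Tcf7 had been seen. At 2000 UMIs a cell, at least 1 UMI of the 3 genes was found in 89 of 186 naive NK cells, or 47.8% (40.5 to 55.3), in 80 of 177 at D11, or 45.2% (37.7 to 52.8), and in 4 of 54 at D14, or 7.41% (2.06 to 17.9). At full depth the numbers were 137, 119 and 15 cells. Gzmb was lower in the cells with such a UMI, at 105 CPM against 304 CPM in the naive library, 155 against 324 CPM at D11 and 323 against 675 CPM at D14. The D14 cells without an early UMI therefore held more Gzmb RNA than the corresponding naive cells, and so did the D14 cells with one. Irf8 had the same order, with 241 against 443 CPM, 334 against 607 CPM and 603 against 851 CPM. Emb, the membrane glycoprotein embigin, had the largest naive ratio of the 22 genes compared between these cells, with 549.7 against 57.7 CPM in the naive library, 484 against 85.0 CPM at D11 and 674 against 171 CPM at D14. Bcl2 stood at 688 (641 to 737) against 559 (481 to 646) CPM in the naive library and at 1256 (1079 to 1454) against 1351 (1202 to 1512) CPM at D14, with overlapping intervals in both. Cells with such a UMI were deeper, with a median of 8343 UMIs against 6548.5 in the naive library and 8638 against 4926 at D14.

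Among the cytotoxic granule genes other than those that chose the cells, Gzmb stood apart. Of 14 measured members, 1 was at least 2-fold higher at D14, Gzmb, and 1 lower, Gzmk (1.47% and 1.65% of all genes), and the list's median was 0.13 at D14 and -0.01 at D11. Gzmk, a granzyme of less mature NK cells, was read in 83, 58 and 3 UMIs, or 55.0, 49.5 and 8.23 CPM, a log2 ratio of -2.74 (-5.05 to -1.14). Serpinb9, the inhibitor that protects a killer cell from its own granzyme B, stood at 188 CPM, 237 CPM and 272 CPM, and Fasl, the death ligand, at 119, 153 and 170 CPM. The granule release genes pointed in different directions, since Stx11 stood at 37.1, 46.1 and 65.8 CPM and Unc13d at 43.7, 33.3 and 19.2 CPM. Srgn, the granule proteoglycan serglycin, stood at 362, 302 and 436 CPM.

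Lectin-like receptors had a median close to the naive level, with exceptions among the members. Of 17 measured members, 0 were at least 2-fold higher or lower at D14 (1.47% and 1.65% of all genes), so the count does not set the list apart. The list's median was -0.06 at D14 and 0.11 at D11, against -0.03 over all 6249 genes in both. Klra3, a Ly49 receptor for MHC class I (chromosome 6, chr6:130323289-130337574, minus strand), had the lowest D14 ratio of the list, at 601 CPM (562 to 641), 563 CPM (521 to 608) and 304 CPM (250 to 367), a log2 ratio of -0.98 (-1.28 to -0.69). Klra7 stood at 216, 269 and 217 CPM and Klra4 at 23.2, 55.5 and 54.8 CPM. Klrk1, which encodes the activating receptor NKG2D, stood at 614, 748 and 719 CPM, and Klrc1, the inhibitory NKG2A, at 162, 135 and 195 CPM. The Ly49 genes are near-identical copies that differ between mouse strains, and the reads of these Balb/C mice were counted on the mm10 reference, so values of single Klra genes are uncertain. Klra8 gave 11, 11 and 0 UMIs.

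Other activating receptors and their adaptors leaned lower. Of 19 measured members, 16 had a D14 ratio below 1, 1 was at least 2-fold lower, Cd2, and 0 at least 2-fold higher (1.65% and 1.47% of all genes), with a median of -0.37 at D14 and -0.21 at D11. Over all 6249 genes the median was -0.03 at both time points. In the B gate, whose cells differed between libraries, the D14 median was -0.24, against 0.16 over all genes. It was 0.12 in CD8 T gate cells, against 0.04 over all genes. In the whole T gate it was -0.14, against -0.35 over all genes, and without neutrophil-rich barcodes -0.07, against 0.05. Cd2, an adhesion receptor that binds CD48 in mice (chromosome 3, chr3:101275899-101287939, minus strand), stood at 387 CPM (357 to 420), 359 CPM (326 to 395) and 143 CPM (107 to 187), a D14 log2 ratio of -1.44 (-1.88 to -1.03), and was read in 163, 144 and 31 cells. Tyrobp, the adaptor DAP12 that passes on activating signals, stood at 1251, 1086 and 878 CPM, and Hcst, the adaptor DAP10 of NKG2D, at 395, 281 and 288 CPM. Sh2d1a, the adaptor SAP of SLAM receptors, stood at 255, 219 and 132 CPM (-0.95, -1.42 to -0.52), and Cd84, a SLAM receptor, at 303, 296 and 156 CPM. Slamf7 stood at 92.1, 47.8 and 54.8 CPM and Slamf6 at 80.8, 58.1 and 46.6 CPM. Sh2d2a went the other way, with 75.5, 85.4 and 132 CPM. Fcer1g, the Fc receptor gamma chain, stood at 695, 734 and 740 CPM, and its 3 intervals overlapped.

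Inhibitory receptors and signalling brakes showed no common direction. Of 9 measured members 0 passed 2-fold in either direction at D14 (1.47% higher and 1.65% lower over all genes), and the median was 0.11 at both time points. Cblb, a ubiquitin ligase that restrains NK cells, stood at 685, 782 and 996 CPM, and the phosphatase Ptpn22 at 347, 397 and 516 CPM. Dusp2, a MAP kinase phosphatase, stood at 230, 300 and 156 CPM. The checkpoint receptors were sparse. Tigit gave 14, 16 and 12 UMIs, or 9.27, 13.7 and 32.9 CPM, Lag3 gave 3.31, 2.56 and 0 CPM, and Pdcd1 was not read in any library.

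Survival genes of the BCL-2 family differed by member. Of 8 measured genes 1 was at least 2-fold higher at D14, Bcl2l11, 0 were lower (1.47% and 1.65% of all genes), and the median was 0.23 at D14 and -0.05 at D11. Bcl2, which blocks apoptosis (chromosome 1, chr1:106538178-106714274, minus strand), stood at 660 CPM (619 to 702), 702 CPM (655 to 751) and 1314 CPM (1199 to 1437), a D14 log2 ratio of 0.99 (0.83 to 1.15). Bcl2l11, which encodes the pro-apoptotic protein BIM (chromosome 2, chr2:128126038-128162547, plus strand), stood at 180 CPM (159 to 203), 166 CPM (144 to 192) and 428 CPM (363 to 500), a D14 log2 ratio of 1.25 (0.95 to 1.54). Both of these opposing genes were thus at their naive level at D11 within counting error and higher at D14. Bcl2 had the opposite order in CD8 T gate cells, at 931, 726 and 395 CPM, and in T gate cells without neutrophil-rich barcodes, at 881, 498 and 446 CPM. Bcl2l11 stood at 103, 98.9 and 115 CPM in CD8 T gate cells. Bax, an effector of apoptosis, stood at 76.8, 76.0 and 35.7 CPM in NK cells, Birc3 at 104, 110 and 186 CPM and Mcl1, which NK cells need to survive, at 252, 227 and 261 CPM.

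Of 11 measured cytokine receptor genes 0 passed 2-fold at D14 (1.47% higher and 1.65% lower over all genes), with a median of -0.15 at D14 and -0.07 at D11. Il12rb2 was the highest in ratio. Il2rb, the chain shared by the receptors for IL-2 and IL-15, stood at 643, 703 and 976 CPM (0.60, 0.42 to 0.78), while its partner Il2rg stood at 180, 157 and 162 CPM. Tgfbr1, a receptor chain for TGF-beta, stood at 152, 94.8 and 82.3 CPM. The IL-18 receptor chains Il18r1 and Il18rap stood at 1068, 1015 and 880 CPM and at 1039, 895 and 1006 CPM. Of 6 measured cytokines and chemokines 1 was at least 2-fold lower at D14, Ccl3, and 0 higher (1.65% and 1.47% of all genes), with a median of -0.38 at D14. Ccl3 stood at 65.6, 54.6 and 16.5 CPM, Ccl4 at 80.1, 70.0 and 46.6 CPM and Ccl5 at 10926, 8597 and 9640 CPM. Ifng, which encodes interferon gamma, stood at 30.5, 37.6 and 38.4 CPM, a difference within counting error.

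Of 12 measured trafficking genes 0 passed 2-fold at D14 (1.47% higher and 1.65% lower over all genes), with a median of -0.17. The chemokine receptor Ccr2 stood at 291, 280 and 165 CPM. S1pr5, the sphingosine receptor by which NK cells leave tissues, stood at 125, 98.2 and 98.7 CPM. The integrin chain Itgb1 stood at 723, 644 and 494 CPM and Itgb2 at 298, 272 and 389 CPM. Among 16 transcription factors 1 was at least 2-fold higher at D14, Irf8, and 1 lower, Tcf7 (1.47% and 1.65% of all genes), with a median of -0.13. Tbx21, which encodes T-bet, stood at 277, 368 and 346 CPM, Id2 at 580, 550 and 516 CPM and Ikzf3, which encodes Aiolos, at 817, 738 and 620 CPM. Tox stood at 425, 629 and 417 CPM, higher at D11 than in both other libraries.

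Some heat shock genes were higher in the leukemic libraries. Of 11 measured members 4 were at least 2-fold higher at D14 and 0 lower (1.47% and 1.65% of all genes), namely Hspa1b, Hspa1a, Hsph1 and Dnajb1. Hspa1a reached the minimum of 20 CPM only through its D14 level, so its place in the count was fixed by that minimum. At D11 1 was higher, Hspa1b, and 0 lower (0.336% and 0.304% of all genes). The list's median was 0.62 at D14 and 0.50 at D11. Hspa1b and Hspa1a, neighbouring genes for the inducible chaperone HSP70 (chromosome 17, chr17:34956436-34959238 and chr17:34969190-34972156, minus strand), are near-identical copies, so the division of reads between them is uncertain. Hspa1b gave 6, 43 and 42 UMIs, or 3.97 CPM (1.46 to 8.65), 36.7 CPM (26.6 to 49.4) and 115 CPM (83.0 to 156), and Hspa1a gave 1, 8 and 21 UMIs. Hspa1b was read in 4 of 189, 19 of 192 and 21 of 54 NK cells. Hsph1, a co-chaperone of the HSP110 family, stood at 45.0 CPM (35.0 to 57.1), 83.7 CPM (67.9 to 102) and 154 CPM (116 to 199), and Dnajb1, an HSP40 co-chaperone, at 37.7, 65.7 and 110 CPM. Hsp90aa1, the inducible HSP90, stood at 267, 488 and 485 CPM, as high at D11 as at D14. The constitutive chaperones Hspa8 (623, 804 and 675 CPM) and Hspe1 (103, 102 and 93.2 CPM) were near their naive levels at D14.

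The heat shock motif consists of GAA units in alternating orientation, and pairs of units have the letters GAANNTTC or TTCNNGAA, each of which reads the same on both strands. At least 1 of the pairs is in the 250 bases before the start of 14.5% of 27025 genes and of 6 of the 8 measured heat shock genes that have an entry, 75.0%. These 6 are Dnaja1, Hspa1a, Hspa1b, Hspd1, Hspe1 and Hsph1. They include Hspe1, which was near its naive level at D14. Dnajb1, which was at least 2-fold higher, is not among them, and whether it has an entry that was searched is not given here. The 3 promoters with the largest D14 ratios of their genes are shown with the pair in capitals. The windows are bases 150 to 1 before the start for Hspa1b and Hspa1a (RefSeq, GRCm38.p6, chr17:34959239-34959388 and chr17:34972157-34972306, minus strand), which are identical at 149 of 150 positions, and bases 45 to 16 for Hsph1 (chr5:149636352-149636381, minus strand).
Hspa1b: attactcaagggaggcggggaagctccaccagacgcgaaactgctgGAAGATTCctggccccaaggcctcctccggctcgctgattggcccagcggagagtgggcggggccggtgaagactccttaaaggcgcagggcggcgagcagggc
Hspa1a: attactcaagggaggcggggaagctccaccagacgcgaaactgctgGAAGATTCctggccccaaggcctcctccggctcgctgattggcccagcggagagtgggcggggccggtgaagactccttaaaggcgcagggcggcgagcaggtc
Hsph1: tgggtagaatctTTCTCGAAggctcgagaa

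Hspa1b had the same order in the other lymphocyte gates, while other members differed between gates. Hspa1b stood at 2.04, 15.5 and 103 CPM in CD8 T gate cells, at 1.82, 14.4 and 125 CPM in T gate cells without neutrophil-rich barcodes and at 1.26, 10.9 and 46.8 CPM in the B gate. Hsp90aa1 stood at 217, 488 and 399 CPM in CD8 T gate cells and at 219, 864 and 875 CPM in the B gate. Hsph1 stood at 59.7, 89.6 and 111 CPM in CD8 T gate cells but at 48.9, 41.5 and 37.2 CPM in the whole T gate. The median of the list at D14 was 0.36 in CD8 T gate cells and 0.23 in T gate cells without neutrophil-rich barcodes, with 6 of 11 members above 0 in each. It was -0.14 in the whole T gate, with 4 of 11 above 0, and 1.70 in the B gate, with 11 of 11 above 0. Over all genes the D14 medians of these gates, in the same order, were 0.04, 0.05, -0.35 and 0.16. The list thus lay above the median over all genes in the whole T gate too.

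**Figure D4:**
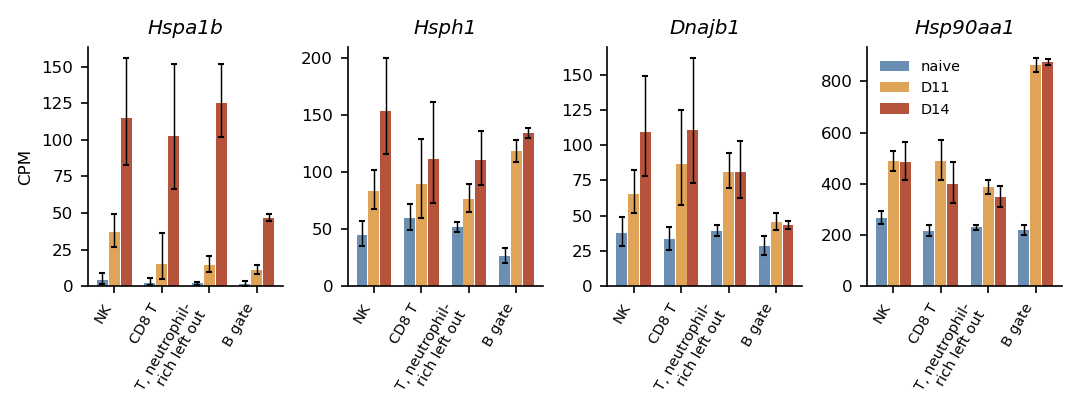
Level of 4 heat shock genes in NK cells, CD8 T gate cells, T gate cells without neutrophil-rich barcodes and B gate cells of the naive, D11 and D14 libraries, in CPM with exact 95% Poisson intervals. Each panel has its own axis from 0. Hspa1b is highest at D14 in all 4 cell groups, at 115 CPM in NK cells, and Hsp90aa1 is higher at D11 and D14 than in the naive library in all 4.

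Immediate early genes respond within minutes to signals at the cell surface. Of 12 measured members 0 reached 2-fold at D14 (1.47% higher and 1.65% lower over all genes) or at D11 (0.336% and 0.304%). At D14, 11 had a ratio above 1. The list's median was 0.60 at D14 and 0.31 at D11, against -0.03 over all 6249 genes in both. Jun stood at 213, 358 and 406 CPM, Junb at 260, 343 and 480 CPM and Nfkbia, the NF-kappa-B inhibitor and feedback gene, at 92.1, 187 and 184 CPM. Cd69, the early activation receptor, was the exception, at 53.0, 39.3 and 30.2 CPM. The medians at D14 were 0.47 in CD8 T gate cells and -0.86 in the B gate, against 0.04 and 0.16 over all genes.

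Groups tied to growth and to interferon had few members past 2-fold. At D14, 1.47% of all 6249 genes were at least 2-fold higher and 1.65% lower. A count of 0 in lists this short therefore does not set them apart. Of 7 measured cell cycle genes 0 passed 2-fold at D14 and 1 was higher at D11 (0.336% of all genes), Mki67, the proliferation antigen, with 19, 49 and 3 UMIs in 12, 12 and 2 cells. Mki67 reached the minimum of 20 CPM only through its D11 level, so this count is no support for a difference. The direction of the list was not stable. Its D11 median of 0.46 was -0.12 when predicted doublets were removed, and its D14 median of -0.18 was 0.50 without barcodes that held markers of other cells. Of 7 measured interferon-stimulated genes, 0 passed 2-fold, with a median of -0.30 at D14 and 0.11 at D11. Ifi203, an interferon-inducible gene, stood at 388, 341 and 219 CPM. Glycolysis and nutrient uptake genes (13 measured) and MHC class I genes (10 measured) had 0 members past 2-fold and medians at D14 of 0.10 and -0.07. B2m, the light chain of MHC class I, stood at 1022, 1068 and 1242 CPM and H2-D1 at 2178, 2236 and 1881 CPM. Several genes belong to more than 1 list, such as Gzmb, Irf8 and Tcf7, so the lists are not independent of each other.

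**Figure D5:**
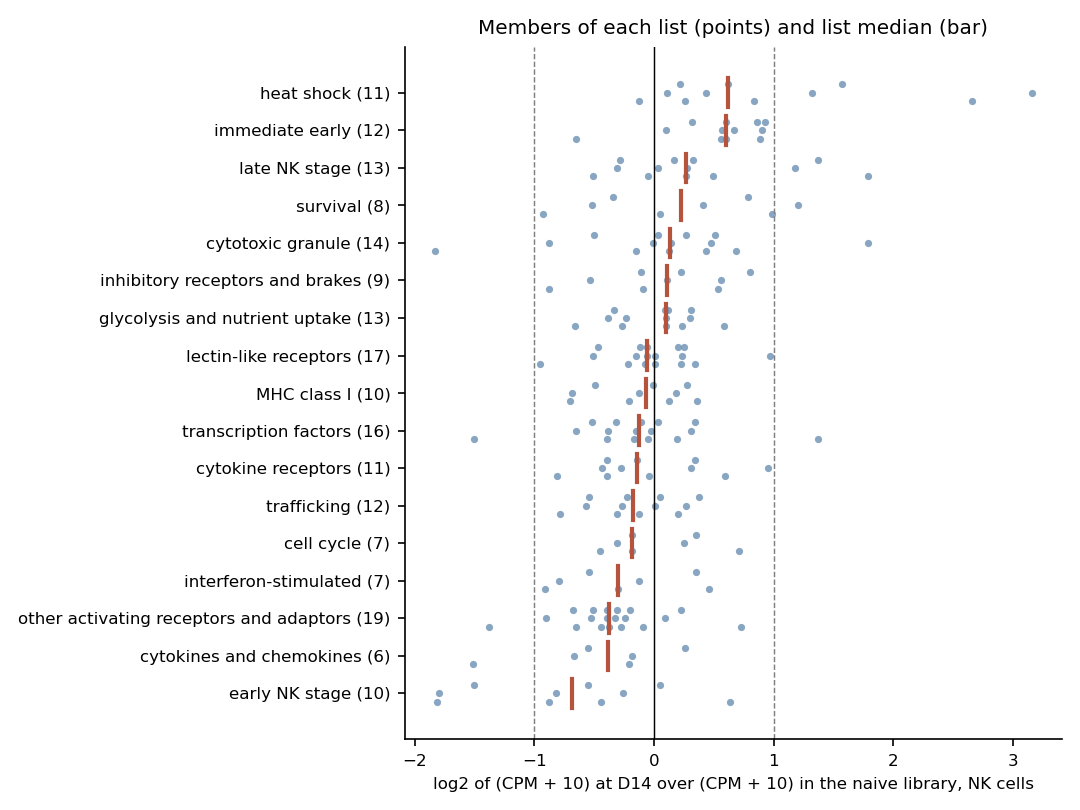
Members of 17 gene lists in NK cells (points) and the median of each list (bar), as log2 of (CPM + 10) at D14 over (CPM + 10) in the naive library, with the number of measured members in parentheses. Dashed lines mark 2-fold. The heat shock list has the highest median, 0.62, and the early NK stage list the lowest, -0.69.

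The D11 library differed from the naive library in fewer genes. By the naming rule the genes highest at D11 were Retnlg, S100a9, Gm47283, Nfkbia and Hsp90aa1, and those lowest were Hgsnat, Xylt1, S100a6, Tomm7 and St6galnac3. The D11 values of Retnlg and S100a9 rest on few cells. For each gene 2 of 192 NK cells held 5 or more UMIs, and 1 cell held 47.4% of the Retnlg UMIs and 45.1% of the S100a9 UMIs. Hgsnat and Xylt1 averaged 100 CPM only through their naive levels and Retnlg only through its D14 level, so their places were fixed by that minimum. Gm47283, a predicted gene, stood at 532, 1047 and 897 CPM. Hgsnat, a lysosomal enzyme that acetylates heparan sulfate, stood at 201 CPM (179 to 225), 48.7 CPM (36.9 to 63.0) and 82.3 CPM (55.5 to 117), lower in both leukemic libraries. S100a6 stood at 409, 214 and 516 CPM and St6galnac3 at 249, 139 and 255 CPM, so neither stood lower at D14, where 33.3% of the St6galnac3 UMIs were in 1 cell. Without barcodes that held markers of other cells the St6galnac3 ratio was 0.12 at D11 and -0.70 at D14 on the log2(CPM + 10) scale, each opposite in sign to its value over all NK cells. Xylt1, a xylosyltransferase, stood at 144, 72.6 and 87.8 CPM, and Tomm7, a mitochondrial import subunit, at 195, 107 and 104 CPM. The remaining genes lowest at D14 were Btbd11 (211, 194 and 90.5 CPM), the noncoding RNA Morrbid, which lowers Bcl2l11 in myeloid cells (198, 143 and 85.0 CPM), the chromatin remodeller Chd3 (174, 137 and 79.5 CPM), Cox16 (190, 183 and 93.2 CPM) and 2410006H16Rik (133, 131 and 65.8 CPM).

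Retnlg, S100a8 and S100a9, abundant genes of neutrophils, rank among the largest D14 ratios and rest mostly on 1 barcode. Retnlg gave 6, 95 and 108 UMIs, and 88.0% of the D14 UMIs were in 1 cell. S100a8 stood at 279, 365 and 1347 CPM and S100a9 at 420, 844 and 1933 CPM, with 83.7% and 81.8% of the D14 UMIs in 1 cell. With at least 5 UMIs of the choosing genes asked for, the D14 ratios of S100a8 and S100a9 turned to -0.29 and -0.32 on the log2(CPM + 10) scale, from 2.23 and 2.18. Over all alternatives they ranged from -0.50 to 5.27 for S100a8 and from -0.47 to 5.17 for S100a9, with the highest values after predicted doublets were removed. The remaining cells were not free of S100a9, since 48 of 54 D14 cells held at least 1 UMI. After thinning to 2000 UMIs, S100a9 was read in 8.60%, 16.4% and 64.8% of NK cells and in 10.9%, 17.6% and 17.8% of B gate cells, whose D14 cells were deeper before thinning. Without thinning it was read in 29.1%, 40.1% and 88.9% of NK cells and in 30.9%, 45.8% and 85.4% of B gate cells. The source of this RNA was not tested.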

How the data were processed

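Blood was depleted of red cells by lysis and of dead cells by beads before 10x Genomics 3′ capture. The authors aligned and counted the reads with Cell Ranger on mm10 and deposited whole-number UMI counts per gene and barcode. The file header names version 5.0.1 and the GEO processing notes version 7.1.0, and which applies is not settled. The tables held 32285 gene identifiers, 32235 of them in the GENCODE annotation used for coordinates. Counts were summed over the NK cells of each library and expressed as CPM. Single-gene log2 ratios are ratios of CPM with exact conditional binomial intervals, levels have exact Poisson intervals and shares have Clopper-Pearson intervals, all at 95%. Gene lists, counts past 2-fold and the choice of named genes used log2(CPM + 10). Lists took members that averaged at least 20 CPM over the 3 libraries, and counts and names at least 100 CPM. Named genes were the 10 highest and 10 lowest ratios at D14, with D11 on the same side of naive, and 5 each at D11, among 1884 genes, leaving out choosing and excluded genes, hemoglobin, mitochondrial and ribosomal protein genes and symbols shared by several identifiers. Members of the 17 lists could also be named. Single values of some members are not reported here. Cells, markers, lists and promoters were chosen with earlier results of these data known. Scrublet marked 116, 167 and 156 barcodes as doublets, 3, 5 and 0 of them NK cells, and these were kept except in 1 alternative. The calculations were checked on simulated counts. Python 3.11.15, scanpy 1.11.5, scipy 1.17.1 and, for TMM factors, edgeR 4.0.16 were used.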

Additional observations from a re-analysis of the deposited data

How the results depend on the processing

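With 1 library per condition, no replicate could be left out and no spread between replicates was measured. No paired analysis was possible because each condition had 1 library and no comparison between conditions had a test. Of 600 alternative values of shares, counts and list medians, 559 differed little (within counting error or, for gene counts, a factor of 1.5), 35 moved further and 6 had the opposite direction. Of the 476 that are list medians, 35 had the other sign, 30 of them where the median lay within the counting error of the summed list, so the direction of small medians is not stable. Without barcodes that held markers of other cells the D14 cell cycle median was 0.50. The D14 medians stayed between -0.96 and -0.55 for the early NK stage and between 0.53 and 0.73 for heat shock, and single-gene D14 ratios between 1.70 and 2.33 for Gzmb and of at least 1.30 for Irf8. Leaving out barcodes with 10 or more UMIs of red cell, platelet, neutrophil or B cell markers kept 180, 56 and 28 NK cells and gave shares of 1.23% at D11 and 0.634% at D14, or 0.260 and 0.134 of naive, with 9 genes higher at D11 and 37 higher and 27 lower at D14. For these shares only the NK cells were filtered, and the totals stayed at 3811, 4567 and 4414 barcodes, so they are not shares on like terms. The same step turned the D11 medians of MHC class I and the late NK stage to -0.0213 and 0.00823. Over all deposited barcodes the shares were 3.58%, 2.28% and 0.610%, or 0.638 and 0.170 of naive. Asking for 500 genes per barcode and allowing 5% mitochondrial UMIs, they were 5.77% at D11 and 1.79% at D14, and the D11 ratio was 1.05. Without red cells and platelets they were 5.97% and 1.60%, with a D11 ratio of 1.19. Over T gate barcodes the D11 ratio was 2.38, and the D14 ratio of 1.15 had the opposite direction. With no Cd3 UMI allowed, the naive share was 4.22%. A minimum of 50 CPM gave 8 higher and 11 lower genes at D11 and 43 and 28 at D14, and 200 CPM gave 13 and 2 at D14. Removing doublets turned the D11 cell cycle median to -0.12. The D11 median of cytokines and chemokines turned to 0.000723 without barcodes rich in neutrophil or hemoglobin UMIs, a choice added after seeing the data, and to 0.0545 with CPM computed over genes other than hemoglobin, mitochondrial and ribosomal protein genes. The D14 values of S100a8 and S100a9 were -0.29 and -0.32 with at least 5 UMIs of the choosing genes, -0.31 and -0.21 when Ncr1 and Klre1 alone were used, and -0.50 and -0.47 when cells were chosen after thinning, and 5.27 and 5.17 after predicted doublets were removed. At 1000 UMIs per cell Cd27 was read in 6.38%, 11.2% and 3.70% of NK cells, with overlapping intervals, and Gzmb in 11.7%, 18.6% and 42.6%. Without thinning Cd27 was read in 37.6%, 37.5% and 13% and Gzmb in 42.9%, 39.6% and 74.1%. The cause of these differences was not tested. The 54 NK cells at D14 limit genes below about 20 CPM to a few UMIs.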

Other observations

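These genes were chosen after their values were seen, and their values are given without explanation. Lsamp, known as a cell adhesion protein of the limbic system, was among the genes at least 2-fold higher at D14 and stood at 1260, 1900 and 2699 CPM in NK cells. Its UMIs were unevenly spread over the cells. In the naive library 98 of 189 NK cells had no Lsamp UMI and 69 had 5 or more, at D11 87 of 192 had none and 80 had 5 or more, and at D14 23 of 54 had none and 24 had 5 or more. Pdia6, a protein disulfide isomerase, stood at 72.2, 102 and 167 CPM, and Ern1, which encodes the stress sensor IRE1 alpha, at 210, 242 and 436 CPM.

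T cell receptor constant genes were read in NK cells although the rule limited Cd3 UMIs. Trbc1 stood at 280, 328 and 324 CPM and Trdc at 162, 150 and 132 CPM, whereas Trac, the alpha chain constant gene, gave 11, 7 and 7 UMIs. In CD8 T gate cells the order of the genes differed, with Trac at 383, 278 and 259 CPM and Trdc at 4, 2 and 1 UMIs.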
